A study of Mus musculus with 17 samples.

Results

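Collagen genes were taken as the protein-coding genes whose symbol is Col, a number, a and a number. The rule found 44 genes among the 53313 gene identifiers that all 17 libraries share: 11 fibrillar collagens, 8 collagens of the basement membrane and 25 others. Collagens are proteins in which 3 chains wind into a triple helix, so that the genes of one type are usually needed together. Most are secreted, and 4 of the 44 genes encode transmembrane collagens. Fibrillar collagens such as types I and III form the fibres of the interstitium and are the material of kidney fibrosis, whereas type IV collagen forms the sheet-like network of basement membranes. In the kidney the α1 and α2 chains of type IV occur in basement membranes throughout the organ, and the α3, α4 and α5 chains form the mature network of the glomerular basement membrane and of parts of the tubular one.

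The libraries were made from wild-type mice of the strain labelled C57BL/6Rj, which the authors' paper names C57BL/6JRj. Primary tubular epithelial cells (PTEC) were grown from tubular fragments of collagenase-digested kidneys, either non-senescent at day 6 without irradiation (n = 4 cultures) or senescent at day 16 after 10 Gy of γ-irradiation (n = 4). Irradiation and the days in culture therefore differ at once between the groups. Whole kidneys came from male mice aged 3, 12 and 24 months (n = 3 per age). The labels do not say whether the cultures came from separate animals, and p-values among PTEC then measure the spread between cultures, which may be technical. Irradiated PTEC were compared with unirradiated ones as a model of cellular senescence, and kidneys of different ages to follow chronological aging.

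Between 26963442 and 35409144 reads were counted on genes per PTEC library, and between 37311247 and 66894790 per kidney. Relative expression is given as CPM, counts brought to a library total of 1000000 after scaling with edgeR's TMM method, and levels are compared between genes only as CPM per kb of exon. The 3 kidneys of 3 months were counted on 54146 gene identifiers and the 6 older kidneys on 55401, so that age and this difference cannot be told apart in comparisons with 3 months. The label of tubular epithelial cells was checked on markers, of which those of the proximal tubule summed to between 116 and 658 CPM in PTEC and to at least 6043 CPM in every kidney. Lrp2, the endocytic receptor megalin of the proximal tubule, lay between 65.5 and 539 CPM in PTEC, while the phosphate transporter Slc34a1 lay between 0 and 22.4 CPM, against at least 2503 CPM in every kidney. Of the fibroblast and pericyte markers, Lum was at or under 0.0738 CPM, Dcn at or under 1.11 CPM and Pdgfra at or under 2.73 CPM in every PTEC library. The 10 markers summed to between 241 and 363 CPM in non-senescent PTEC and between 950 and 2185 CPM in senescent PTEC. Most of this was Acta2 and Tagln of the contractile cytoskeleton. Of the 9 markers tested between these groups, however, 7 were called higher and 1 lower in the senescent cultures (median change 2.48 on the log2 scale). The low levels of Lum, Dcn and Pdgfra therefore do not stand for the whole list. Kidneys of 3 months replicate 2 and of 12 months replicate 2 stood apart from the others of their ages, with podocyte marker sums of 380 CPM against 169 and 201 CPM, and of 124 CPM against 269 and 304 CPM. Their proximal tubule marker sums also lay outside those of the others, at 11862 CPM against 6043 and 8581 CPM, and at 7034 CPM against 12198 and 12934 CPM.

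The type IV genes lie in 3 head-to-head pairs, each transcribed outwards from a common stretch of DNA, and their start regions are shown because the genes of a pair are compared below. On GRCm38, Col4a1 (chr8:11198423-11312826, minus strand) and Col4a2 (chr8:11312805-11449287, plus strand) share 22 bases at their starts. Col4a4 (chr1:82448423-82586849, minus strand) and Col4a3 (chr1:82586921-82722059, plus strand) are 71 bases apart, and Col4a6 (chrX:141165403-141474076, minus strand) and Col4a5 (chrX:141475385-141689234, plus strand) are 1308 bases apart. RefSeq promoter windows on GRCm38.p6, from 250 bases before to 50 bases after a start, were found for 35 of the 44 genes, 38 windows in all. Col1a1, Col2a1, Col4a3, Col5a2, Col9a3, Col12a1, Col14a1, Col22a1 and Col26a1 have none. The windows of Col4a1 and Col4a2 overlap by 78 bases. Capitals mark matches on either strand to GGGCGG, the letters of the GC box bound by Sp1, to CCAAT of the box of that name, and to TATAAA of the TATA box. The windows of Col4a1 (chr8:11312777-11313076, minus strand), Col4a2 (chr8:11312555-11312854, plus strand), Col4a4 (chr1:82586800-82587099, minus strand), Col4a5 (chrX:141475169-141475468, plus strand), Col4a6 (chrX:141474027-141474326, minus strand) and Col11a1 (chr3:114030290-114030589, plus strand, the gene with the largest rise in senescent PTEC) read, 5′ to 3′:
Col4a1: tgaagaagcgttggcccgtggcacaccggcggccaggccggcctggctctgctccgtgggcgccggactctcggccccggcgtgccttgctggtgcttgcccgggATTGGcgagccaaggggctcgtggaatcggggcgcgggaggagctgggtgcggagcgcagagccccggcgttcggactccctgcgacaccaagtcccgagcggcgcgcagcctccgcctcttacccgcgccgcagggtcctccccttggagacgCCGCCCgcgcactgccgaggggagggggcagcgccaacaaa
Col4a2: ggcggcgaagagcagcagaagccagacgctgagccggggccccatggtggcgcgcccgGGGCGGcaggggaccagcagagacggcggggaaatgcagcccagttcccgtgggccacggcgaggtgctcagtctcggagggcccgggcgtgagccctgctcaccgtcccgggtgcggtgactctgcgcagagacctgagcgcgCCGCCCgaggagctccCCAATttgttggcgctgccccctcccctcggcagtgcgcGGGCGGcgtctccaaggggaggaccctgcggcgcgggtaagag
Col4a4: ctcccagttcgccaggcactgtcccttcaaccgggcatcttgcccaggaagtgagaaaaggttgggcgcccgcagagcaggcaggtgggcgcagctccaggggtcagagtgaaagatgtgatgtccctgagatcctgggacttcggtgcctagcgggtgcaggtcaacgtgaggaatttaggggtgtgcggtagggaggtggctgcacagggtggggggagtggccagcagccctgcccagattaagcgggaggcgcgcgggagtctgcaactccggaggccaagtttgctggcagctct
Col4a5: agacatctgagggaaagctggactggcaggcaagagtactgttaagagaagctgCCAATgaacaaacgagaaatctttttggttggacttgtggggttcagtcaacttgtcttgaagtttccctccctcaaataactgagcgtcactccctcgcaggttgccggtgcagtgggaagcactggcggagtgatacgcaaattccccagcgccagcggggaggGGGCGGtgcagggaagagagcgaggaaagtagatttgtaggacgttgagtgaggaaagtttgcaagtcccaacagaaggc
Col4a6: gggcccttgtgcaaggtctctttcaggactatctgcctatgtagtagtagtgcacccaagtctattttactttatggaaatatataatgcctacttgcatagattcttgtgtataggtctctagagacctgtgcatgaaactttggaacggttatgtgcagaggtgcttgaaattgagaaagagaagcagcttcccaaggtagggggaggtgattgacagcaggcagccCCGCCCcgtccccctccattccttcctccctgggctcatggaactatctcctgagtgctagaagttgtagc
Col11a1: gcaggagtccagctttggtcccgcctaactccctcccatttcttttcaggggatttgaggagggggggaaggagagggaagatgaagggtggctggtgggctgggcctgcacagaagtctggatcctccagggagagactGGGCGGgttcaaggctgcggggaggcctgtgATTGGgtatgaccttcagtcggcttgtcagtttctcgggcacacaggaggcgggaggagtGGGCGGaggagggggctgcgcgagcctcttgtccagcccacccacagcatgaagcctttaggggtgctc

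Col4a2 holds 3 matches to the GC box, Col11a1 2, Col4a1, Col4a5 and Col4a6 1 each and Col4a4 none of the motifs, and none of the 6 holds TATAAA. The GC box letters occurred in 23 of the 38 collagen windows, against 35.9% of the 32544 windows in the table. CCAAT occurred in 13 of 38, against 37.4%, and TATAAA in 5 of 38, against 13.6%. These matches describe the letters only.

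Most collagen genes were higher in senescent than in non-senescent PTEC. Of the 33 with enough counts to be tested in edgeR, 21 were up-regulated, 4 were down-regulated and 8 were not called. A call needed both an adjusted p below 0.05 and a log2 fold change beyond 0.5 in either direction. Of all 15434 genes tested, 20.1% were up-regulated and 19.7% were down-regulated. Their log2 fold changes had a median of 1.54, against -0.0020 over all genes. In 17 collagen genes the 4 senescent cultures all lay above the 4 non-senescent ones, and in 5 they all lay below, where 22.1% and 19.9% of all tested genes did so. By class, 7 of 10 fibrillar genes, 5 of 8 basement membrane genes and 9 of 15 others were up-regulated. Among these, Col2a1, Col8a2, Col9a2, Col9a3, Col11a2, Col14a1 and Col20a1 averaged at most 0.313 CPM in non-senescent PTEC. They had enough counts to be tested only because of the senescent cultures. Of the 4 down-regulated genes, Col17a1 was tested only because of the non-senescent ones. The tally of calls, the median and the counts of genes whose groups did not overlap are thus partly set by the filter on low counts. Other marker lists moved in the same cultures. Of the fibroblast and pericyte markers 7 of 9 tested were up-regulated and 1 down-regulated. The 6 markers of epithelium summed to between 3054 and 4259 CPM in non-senescent and between 1360 and 3088 CPM in senescent PTEC, with 1 of 6 called, Cdh16, down-regulated. The 5 markers of the loop of Henle and distal nephron summed to between 6.49 and 28.4 CPM and between 0.484 and 0.865 CPM, with both tested markers, Umod and Slc12a1, down-regulated. The senescent sums were too low for both to pass the filter there, so these calls downwards are partly set by the filter. The part of these marker lists in the collagen results was not tested.

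**Figure D1:**
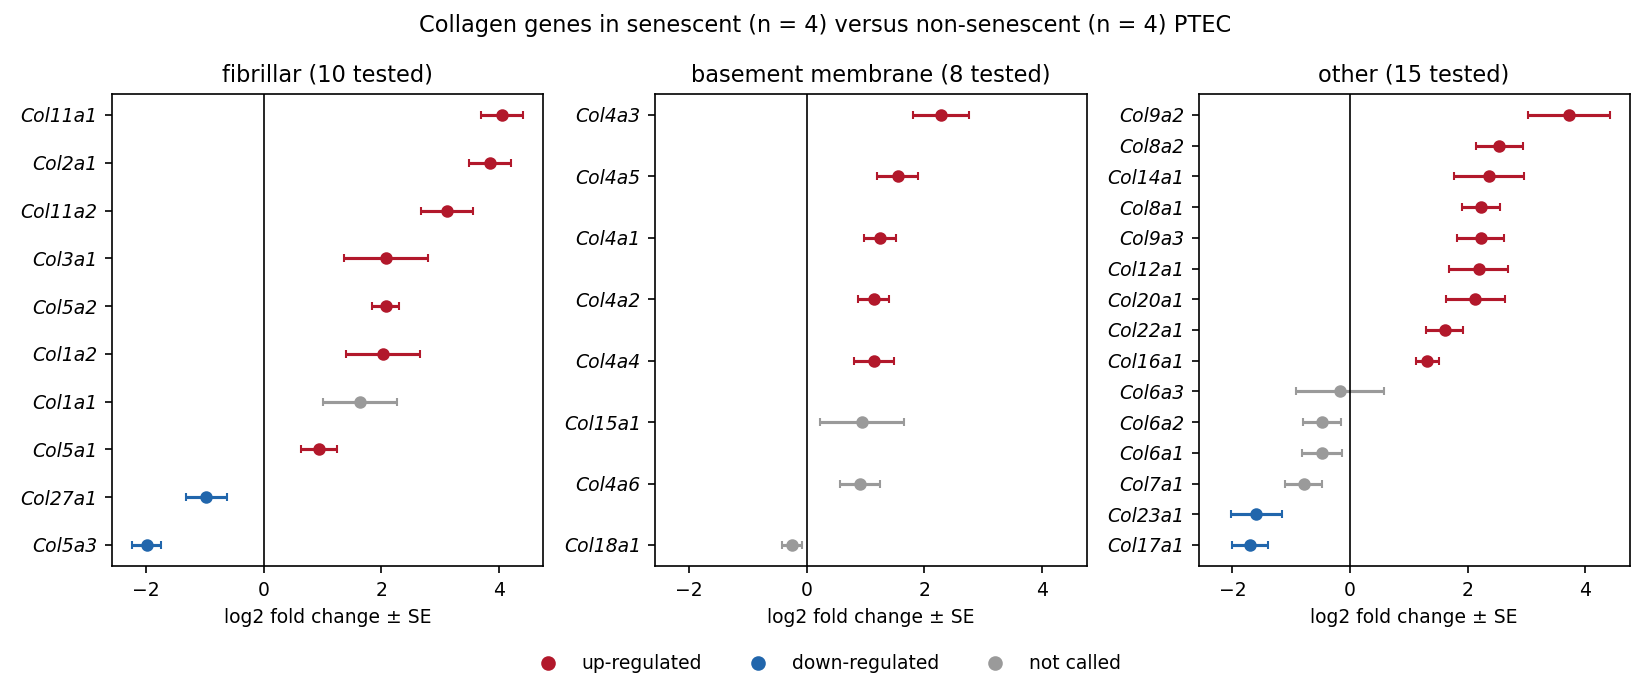
Log2 fold change with its SE (edgeR) of the 33 tested collagen genes in senescent against non-senescent PTEC, split by class and coloured by call. Points lie between -1.99 for Col5a3 and 4.06 for Col11a1, and 24 of the 33 lie above 0.

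Type IV collagen, with Col18a1, made up most of the collagen transcripts of these cells, and 5 of its 6 genes were up-regulated in senescent PTEC. Col4a1, which encodes the α1 chain, was at 806, 834, 593 and 1131 CPM in non-senescent replicates 1 to 4 and at 2494, 1876, 1194 and 2427 CPM in the senescent ones. The groups did not overlap, although non-senescent replicate 4 and senescent replicate 3 came close, and the log2 fold change was 1.25 (SE 0.27, adjusted p = 0.00485). Its partner Col4a2, for the α2 chain, was at 466, 512, 412 and 748 CPM and at 1474, 1164, 710 and 1366 CPM. Here senescent replicate 3 fell below non-senescent replicate 4, so that the groups overlapped, with a log2 fold change of 1.14 (SE 0.26, adjusted p = 0.00656). The ratio of Col4a2 to Col4a1 had a mean log2 value of -0.65 ± 0.12 in non-senescent and -0.76 ± 0.06 in senescent PTEC (SD, n = 4, exact two-sided permutation p = 0.20, adjusted p = 0.369 over 24 ratio tests).

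Col4a3, for the α3 chain of the mature network, had the largest rise of the type IV genes. It was at 139, 158, 61.3 and 337 CPM in non-senescent and at 739, 526, 758 and 1360 CPM in senescent PTEC. The groups were well apart, with a log2 fold change of 2.28 (SE 0.48, adjusted p = 0.00427). Col4a4, for α4, was at 110, 120, 111 and 281 CPM and at 321, 241, 325 and 481 CPM, and Col4a5, for α5, at 129, 114, 97.4 and 287 CPM and at 520, 378, 350 and 584 CPM. For both genes non-senescent replicate 4 stood far above the other 3 cultures of its group, and for Col4a4 it exceeded senescent replicate 2. The same culture had the highest Lrp2, at 539 CPM, and the highest proximal tubule marker sum, at 658 CPM against 116 to 142 CPM in the other 3, and the part of this in the result was not tested. Log2 fold changes were 1.14 for Col4a4 (SE 0.34, adjusted p = 0.0215) and 1.54 for Col4a5 (SE 0.34, adjusted p = 0.00552). These 3 chains are also known from podocytes, whose 6 markers summed to between 90.8 and 206 CPM in non-senescent and between 213 and 465 CPM in senescent PTEC, without overlap. Most of the sum in senescent PTEC was Synpo, an actin-binding protein, which with Nphs1 was up-regulated (2 of 4 tested). Nphs1, the slit diaphragm protein nephrin, did not exceed 1.57 CPM in any culture, and the part of podocyte RNA was not tested. Without any one of non-senescent replicate 1, non-senescent replicate 2 or senescent replicate 4, the call of Col4a4 was lost (adjusted p from 0.0517 to 0.0643).

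Col4a6, for the α6 chain, was the least abundant of the 6 per kb of exon. It was at 16.5, 14.8, 11.9 and 35.7 CPM in non-senescent and 42.9, 30.4, 27.8 and 46.6 CPM in senescent PTEC. The groups overlapped through non-senescent replicate 4, and the log2 fold change of 0.91 was not called (SE 0.34, adjusted p = 0.0517). It was called with the replicate number as a block (adjusted p = 0.00138), without non-senescent replicate 4 (log2 fold change 1.35, adjusted p = 0.00224) and without senescent replicate 3 (adjusted p = 0.0429). The other head-to-head partners were compared in the same way. The log2 ratio of Col4a6 to Col4a5 lay between -3.03 and -2.95 in the 4 non-senescent cultures and between -3.65 and -3.60 in the 4 senescent ones, a difference of -0.64 in the means. The log2 ratio of Col4a4 to Col4a3 lay between -0.39 and 0.85 in non-senescent and between -1.50 and -1.13 in senescent PTEC, with means that differed by -1.23. Both had an exact two-sided permutation p of 0.0286, the smallest that 4 against 4 cultures can give, and an adjusted p of 0.218 over 24 ratio tests, so neither passed the correction. Col4a3 shares 563 of its 9967 exon bases with C430014B12Rik on the opposite strand, which was at or under 0.415 CPM in every PTEC library.

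**Figure D2:**
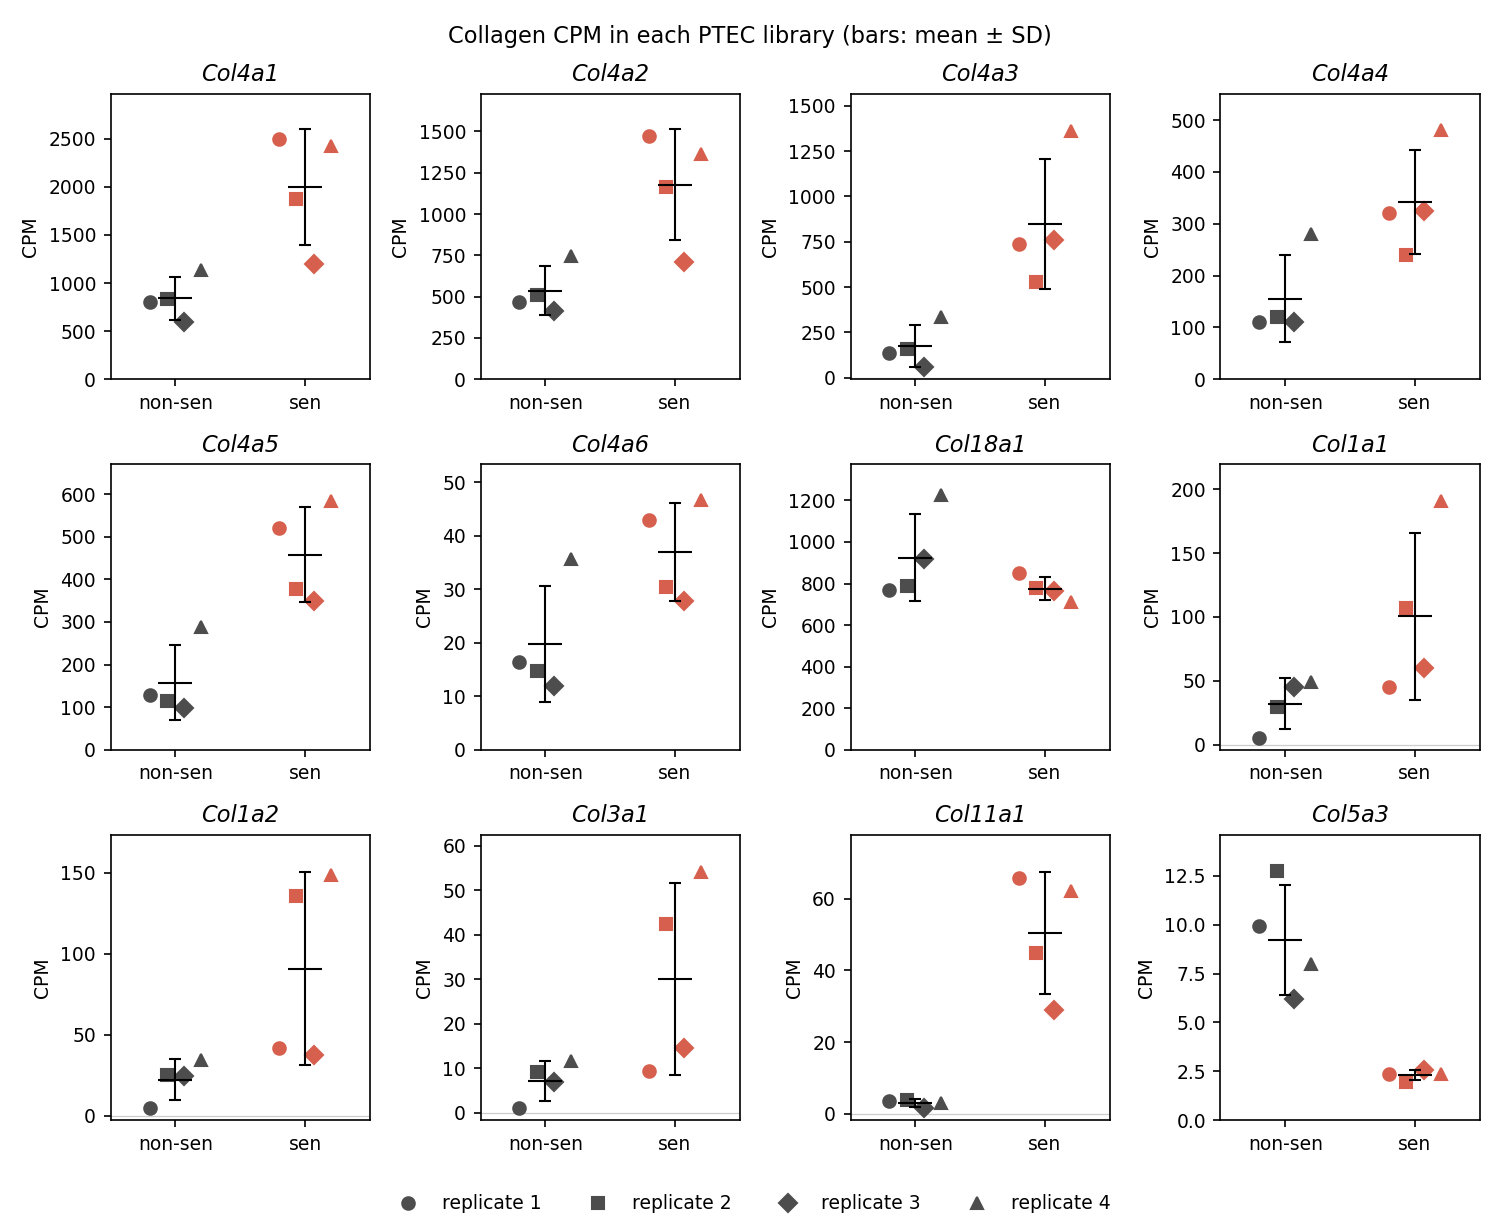
CPM of 12 collagen genes in each PTEC library, non-senescent (non-sen) and senescent (sen), with marker shapes for replicates 1 to 4 and black bars for the mean ± SD. Replicate 4 is the highest non-senescent culture for all 6 type IV genes, and for Col18a1 the groups overlap.

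The other 2 basement membrane genes were not called. Col18a1, a multiplexin whose C-terminal fragment is endostatin, was at 768, 788, 917 and 1224 CPM in non-senescent and 849, 780, 762 and 711 CPM in senescent PTEC. The groups overlapped, and the log2 fold change was -0.25 (SE 0.17, adjusted p = 0.268). Col15a1, the other multiplexin, was at or under 12.5 CPM in every culture and had a log2 fold change of 0.94 (SE 0.72, adjusted p = 0.315), which was between 0.02 without senescent replicate 4 and 1.36 without non-senescent replicate 2. Per kb of exon, Col18a1 was the highest collagen in non-senescent PTEC, at 131.7 CPM per kb, ahead of Col4a1 at 112.7 and Col4a2 at 80.8. In senescent PTEC it came after Col4a1 at 267.7 and Col4a2 at 178.0, at 110.5 CPM per kb.

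Of the fibrillar genes, the major interstitial collagens varied widely between cultures. Col1a1 (chr11:94936224-94953042), for the α1 chain of type I, was at 5.44, 29.4, 45.3 and 48.8 CPM in non-senescent and 45.0, 107, 60.3 and 190 CPM in senescent PTEC. Senescent replicate 1 lay within the range of the non-senescent cultures, and the log2 fold change of 1.64 was not called (SE 0.63, adjusted p = 0.0571). With the replicate block it was called, at a log2 fold change of 1.80 and an adjusted p of 0.00763, and it was also called without senescent replicate 1 (adjusted p = 0.0472) or senescent replicate 3 (adjusted p = 0.0494). Col1a2 (chr6:4504814-4541544), for the α2 chain, was at 4.52, 25.2, 24.7 and 34.5 CPM and at 41.7, 136, 37.4 and 149 CPM. Col3a1 (chr1:45311538-45349706), for type III, was at 0.984, 9.09, 6.86 and 11.7 CPM and at 9.46, 42.4, 14.6 and 54.1 CPM. In both genes senescent replicates 2 and 4 were several times higher than senescent replicates 1 and 3. The groups were apart for Col1a2 and overlapped for Col3a1, with log2 fold changes of 2.03 (SE 0.63, adjusted p = 0.0251) and 2.08 (SE 0.71, adjusted p = 0.0385). Both calls were lost without the filter on low counts (adjusted p = 0.111 and 0.148) and without senescent replicate 2 or senescent replicate 4, and that of Col3a1 also without non-senescent replicate 2 or 3 (adjusted p from 0.0573 to 0.109 over the 4 for Col3a1 and up to 0.0705 for Col1a2). In the same cultures the fibroblast and pericyte markers Pdgfrb, between 2.43 and 5.81 CPM in non-senescent and between 3.89 and 15.7 CPM in senescent PTEC, and Dcn were also called up-regulated, and their part in the result was not tested. In these bulk libraries, a change in the number of cells of a type and a change in RNA per cell cannot be told apart.

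The fibrillar genes with the largest rises were the minor ones. Col11a1, for the α1 chain of type XI, a chain of thin fibrils that is best known from cartilage, was at 3.75, 3.84, 1.53 and 2.95 CPM in non-senescent and at 65.9, 44.8, 29.0 and 62.2 CPM in senescent PTEC. Every senescent culture exceeded every non-senescent one several-fold, with a log2 fold change of 4.06 (SE 0.35, adjusted p = 3.02e-05). Its partner chains followed at far lower levels. Col11a2 was at 0.154, 0.0985, 0.196 and 0.48 CPM and at 1.74, 1.54, 2.86 and 1.90 CPM, and Col2a1, for the cartilage collagen type II, at 0.154, 0.23, 0.0784 and 0.111 CPM and at 2.83, 1.64, 1.95 and 2.21 CPM. Log2 fold changes were 3.12 (SE 0.45, adjusted p = 0.00054) and 3.85 (SE 0.36, adjusted p = 4.75e-05), and neither pair of groups overlapped. Of type V, which nucleates type I fibrils, Col5a2 rose from 60.4, 69.3, 51.1 and 80.4 CPM to 237, 194, 299 and 370 CPM (log2 fold change 2.07, SE 0.22, adjusted p = 0.000106). Col5a1 was also called, with a log2 fold change of 0.94 and overlapping groups (SE 0.30, adjusted p = 0.0302), a call that was lost without any one of 6 of the 8 cultures (adjusted p up to 0.0840), all but non-senescent replicate 2 and senescent replicate 3. The third chain went the other way. Col5a3 fell from 9.93, 12.7, 6.20 and 8.01 CPM to 2.35, 1.94, 2.59 and 2.38 CPM (log2 fold change -1.99, SE 0.25, adjusted p = 0.000265), and the groups did not overlap. Col27a1, a fibrillar collagen of cartilage, fell from 16.3, 19.2, 13.3 and 17 CPM to 4.89, 4.35, 12.8 and 11.4 CPM (log2 fold change -0.98, SE 0.35, adjusted p = 0.0436). That call was lost without non-senescent replicate 1, 2 or 4 or senescent replicate 1 or 2 (adjusted p from 0.0769 to 0.109).

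Among the remaining collagens, the FACITs sit on the surface of fibrils and do not form fibres of their own. Col9a2, Col9a3, Col14a1 and Col20a1 averaged at most 0.313 CPM in non-senescent PTEC and passed the filter on low counts only through the senescent cultures. All 7 FACITs that were tested were up-regulated, where 20.1% of all genes were, a tally that is partly set by the filter. Col12a1, the most abundant of them per kb and a component of tissues under tension, was at 50.1, 75.5, 11.8 and 70.5 CPM in non-senescent and 269, 244, 123 and 310 CPM in senescent PTEC (log2 fold change 2.19, SE 0.50, adjusted p = 0.00657). Replicate 3 was the lowest culture in both groups, and the groups did not overlap. Col16a1 rose from between 11.8 and 12.6 CPM to between 20.1 and 37.1 CPM, with a log2 fold change of 1.31 (adjusted p = 0.000549). Col14a1 was at 0.215, 0.295, 0.0784 and 0.295 CPM and at 2.03, 1.61, 0.378 and 0.656 CPM (log2 fold change 2.36, SE 0.59, adjusted p = 0.0101). Col9a3 of type IX, the FACIT of cartilage fibrils, was at 0.184, 0.164, 0.392 and 0.406 CPM and at 1.35, 0.904, 2.0 and 1.04 CPM (log2 fold change 2.22, SE 0.40, adjusted p = 0.0019). Col20a1 was at 0.0615, 0.328, 0.196 and 0.664 CPM and at 1.22, 1.24, 1.51 and 1.49 CPM (log2 fold change 2.13, SE 0.50, adjusted p = 0.0074). All 3 had groups that did not overlap. For Col9a2 the log2 fold change was 3.72 (adjusted p = 0.00226), for Col22a1 it was 1.61 (adjusted p = 0.00272), and Col9a2 stayed at or under 1.0 CPM.

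The network-forming collagens of type VIII, known from endothelial and corneal membranes, rose as well. Col8a1 was at 8.39, 7.94, 5.80 and 8.90 CPM in non-senescent and 26.7, 26.4, 27.6 and 64.4 CPM in senescent PTEC, with senescent replicate 4 far above the rest (log2 fold change 2.22, SE 0.32, adjusted p = 0.000518). Col8a2 stayed at or under 0.837 CPM, with a log2 fold change of 2.54 (adjusted p = 0.000805). None of the 3 tested beaded-filament genes of type VI was called. Col6a1 was at 19.8, 29.6, 7.53 and 13.9 CPM in non-senescent and 12.2, 11.8, 13.5 and 13.4 CPM in senescent PTEC, and the log2 fold changes of Col6a1, Col6a2 and Col6a3 were -0.48, -0.47 and -0.17 (adjusted p from 0.27 to 0.868). Without non-senescent replicate 3, however, Col6a1 was called down-regulated (adjusted p = 0.0285). Of the transmembrane collagens, Col17a1, a hemidesmosome component, fell from between 0.667 and 0.997 CPM to between 0.173 and 0.351 CPM (log2 fold change -1.71, adjusted p = 0.00187), and Col23a1 fell from between 1.02 and 3.40 CPM to between 0.459 and 0.804 CPM (log2 fold change -1.59, adjusted p = 0.0148). Col7a1, which forms the anchoring fibrils beneath epithelia, was lower in all 4 senescent cultures, at 10.9, 9.14, 25.4 and 23.4 CPM against 26.5, 34.2, 26.8 and 31.7 CPM, but was not called (log2 fold change -0.79, SE 0.32, adjusted p = 0.0683). It was called with the replicate block (adjusted p = 0.0302) and without senescent replicate 3 (adjusted p = 0.0257).

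The 11 collagen genes that did not pass the filter in PTEC, Col6a4, Col6a5, Col6a6, Col9a1, Col10a1, Col13a1, Col19a1, Col24a1, Col25a1, Col26a1 and Col28a1, reached at most 0.756 CPM in any culture. Col6a6 had 0 counts in all 8 cultures. A count of 0 allows up to 3 counts, here from 0.0847 to 0.111 CPM per library, a limit that covers counting error only.

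The make-up of the collagen transcripts was summarised as the share of each class in the summed CPM per kb of all 44 genes. This sum was 419 ± 116 CPM per kb in non-senescent and 846 ± 192 in senescent PTEC (SD, n = 4), with ranges of 333 to 590 and 616 to 1051 that did not overlap. Basement membrane genes held 91.3% ± 1.7 of it in non-senescent and 88.2% ± 2.1 in senescent PTEC, and fibrillar genes 5.12% ± 0.94 and 8.03% ± 1.83. Within the basement membrane the weights moved: Col18a1 held between 28.7% and 39.2% in non-senescent and between 9.64% and 17.6% in senescent PTEC, while Col4a3, Col4a4 and Col4a5 together held between 9.32% and 17.5% and between 17.1% and 25.8%. The ranges were apart for Col18a1 and overlapped slightly for the α3, α4 and α5 genes, whose share was higher in the senescent culture of all 4 same-numbered pairs. A share of a class depends on the gene lengths used, and with the longest transcript in place of all exons the fibrillar share of senescent PTEC was 10.1%.

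**Figure D3:**
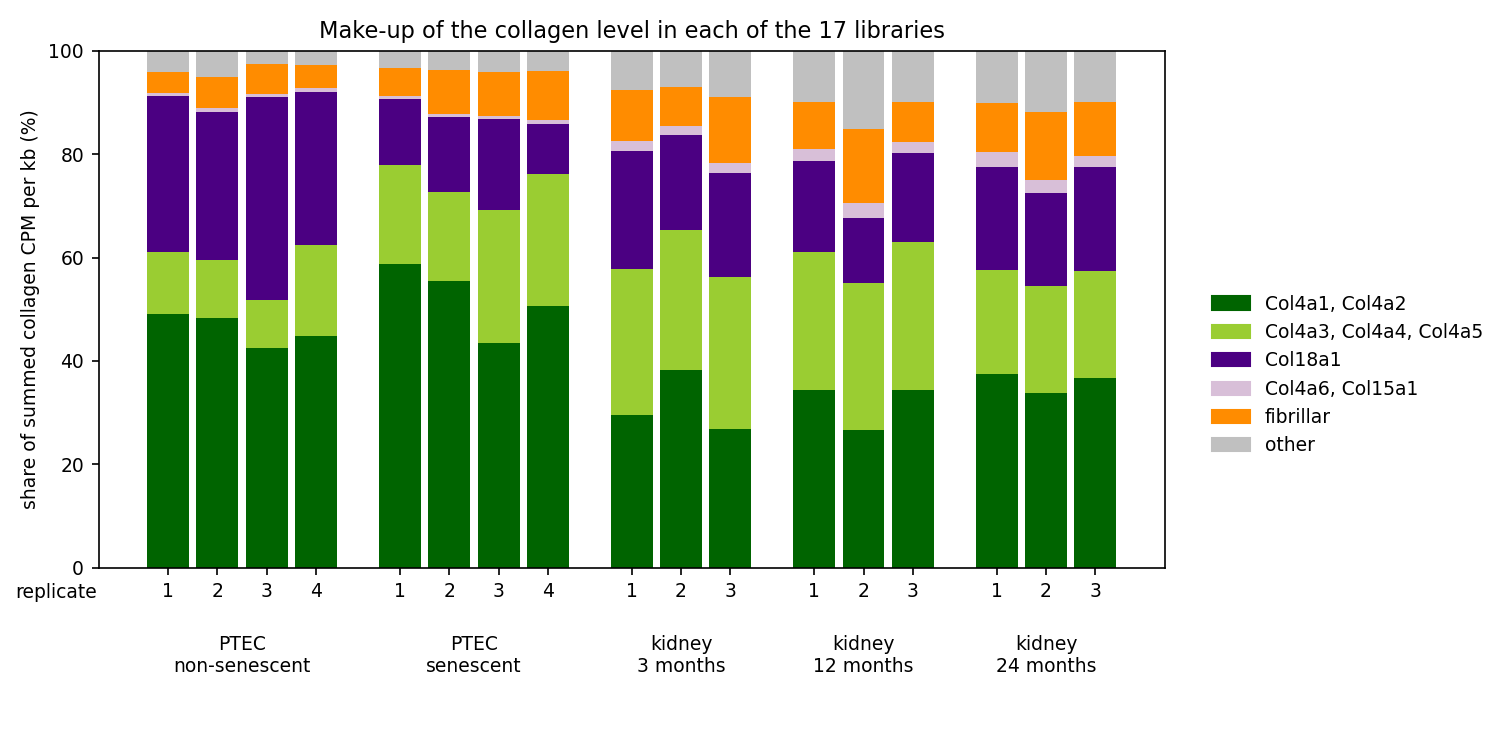
Share of the summed collagen CPM per kb held by gene groups in each of the 17 libraries, stacked to 100%. The share of Col18a1 is lower in all 4 senescent than in all 4 non-senescent PTEC, and that of Col4a3, Col4a4 and Col4a5 is lower in the 3 kidneys of 24 months, at 20.1% to 20.7%, than in the 6 younger ones, at 26.7% to 29.4%.

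Genes that build, bind and remove collagen were followed as lists. Of 29 tested genes that modify or cross-link collagen chains, 15 were up-regulated and 2 down-regulated in senescent PTEC, where 20.1% and 19.7% of all genes were, and the median over the list was a log2 fold change of 0.54. The same shares stand behind the receptors and the genes of degradation. The largest rises were those of Lox, the lysyl oxidase that cross-links collagen, from 60.4 ± 22.6 to 466 ± 148 CPM (SD, n = 4, log2 fold change 2.95, adjusted p = 0.000125), and of P3h3 and P3h4, parts of an enzyme complex that modifies the chains in the endoplasmic reticulum, with log2 fold changes of 2.57 and 2.47. The smallest log2 fold changes among called genes were those of Pcolce2 and Pcolce, enhancers of procollagen C-proteinase, at -2.21 and -1.05, and of Crtap, a partner of the prolyl hydroxylases, at 0.50. Of 8 tested collagen receptors, 5 were up-regulated and 1 was down-regulated. Ddr2 and Itga11, a discoidin receptor and an integrin subunit that bind fibrillar collagen, had log2 fold changes of 2.57 and 2.56, and Itgb1, the shared β1 subunit, of 1.13, whereas the inhibitory leukocyte receptor Lair1 had one of -1.70. Among 7 tested genes of degradation and uptake, Mmp2, Mrc2 and Mmp14 were up-regulated, with log2 fold changes of 3.45, 2.15 and 0.77, and Mmp8 was down-regulated at -1.42.

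In whole kidneys, basement membrane genes again held most of the collagen level. The 44 genes summed to 115 ± 43 CPM per kb at 3 months, 116 ± 34 at 12 months and 155 ± 30 at 24 months (SD, n = 3), and the ranges overlapped. PTEC and kidneys were normalized separately, so these sums are set beside those of PTEC without a test. Basement membrane genes held 82.0% ± 3.6, 78.0% ± 6.5 and 78.3% ± 2.9 of the sum, and genes of the class of others 7.85% ± 1.03, 11.6% ± 3.1 and 10.6% ± 1.0. Col4a3, Col4a4 and Col4a5 together held between 27.2% and 29.4% at 3 months, between 26.7% and 28.5% at 12 months and between 20.1% and 20.7% at 24 months. All 3 kidneys of 24 months thus lay below all 6 younger ones in this share. The cartilage types were near 0. Col2a1, Col11a1 and Col11a2, which were up-regulated in senescent PTEC, did not exceed 0.18 CPM in any kidney. They are among the 10 genes that did not pass the filter there, with Col9a1, Col9a2, Col9a3, Col10a1, Col22a1, Col25a1 and Col28a1, none of which exceeded 0.225 CPM. Col9a1 had 0 counts in all 9 kidneys, which allows from 0.0449 to 0.0805 CPM per library.

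Few collagen genes changed with age by the test. In kidneys of 24 against 3 months, 34 collagen genes were tested, of which 3 were up-regulated and 1 was down-regulated, where 1.89% and 0.451% of the 17067 genes tested were. In 13 collagen genes all kidneys of 24 months lay above all kidneys of 3 months and in 2 below, where 11.9% and 10.1% of all genes did so. The median of the log2 fold changes was 0.39 over the collagen genes and 0.00071 over all genes, and 26 of the 34 were above 0. Without 3 months replicate 2 the collagen median was 0.74 and 7 genes were up-regulated, Col1a2, Col5a1, Col14a1 and Col15a1 beside the 3 below, and 1 down-regulated, where 2.62% and 1.9% of all genes were, whereas without any one of the other 5 kidneys at most 1 was.

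The 3 up-regulated genes were the classical chains of type VI collagen, which forms beaded filaments around cells and beside basement membranes. Col6a1 (chr10:76708792-76726168) was at 7.69, 9.93 and 6.19 CPM at 3 months, 12.3, 11.2 and 11.9 CPM at 12 months and 14.3, 18.9 and 19.6 CPM at 24 months. The 3 ages did not overlap. The log2 fold change from 3 to 24 months was 1.15 (SE 0.20, adjusted p = 0.0225). Col6a2 (chr10:76595762-76623630) was at 5.33, 7.78 and 3.78 CPM, then 9.63, 6.25 and 9.15 CPM, then 23.1, 16.1 and 15.5 CPM, so that the 3 kidneys of 24 months lay above all others (log2 fold change 1.69, SE 0.30, adjusted p = 0.0239). Col6a3 (chr1:90765923-90843971) was at 5.62, 7.05 and 6.43 CPM, then 11.4, 12.7 and 10.5 CPM, then 18.2, 11.5 and 11.4 CPM, with the older 2 ages overlapping and both above 3 months (log2 fold change 1.1, SE 0.21, adjusted p = 0.0313). All 3 calls were lost without 3 months replicate 1 or 3 or 24 months replicate 2 or 3, and those of Col6a2 and Col6a3 also without 24 months replicate 1 (adjusted p from 0.0505 to 0.168), but none without 3 months replicate 2. With only the 2 ages fitted the calls of Col6a1 and Col6a3 were lost (adjusted p = 0.0627 and 0.0727). The fibroblast and pericyte marker sum overlapped between the ages, at 166 to 223 CPM and 186 to 235 CPM, while the leukocyte marker sum was between 20.3 and 25.3 CPM at 3 months and between 43.3 and 65.8 CPM at 24 months, and its part in the result was not tested. The other type VI genes, which lie together on chromosome 9, were not called: Col6a4 and Col6a6 had log2 fold changes of -0.02 and -0.50, and Col6a5 one of 1.73 (adjusted p = 0.118).

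Col4a5 was the only collagen gene that edgeR called down-regulated at 24 against 3 months. It was at 40.7, 30.8 and 41.3 CPM at 3 months, 22.2, 27.2 and 23.4 CPM at 12 months and 21.5, 20.5 and 17.8 CPM at 24 months, and the 3 ages did not overlap. The log2 fold change from 3 to 24 months was -0.91 (SE 0.16, adjusted p = 0.0242), and the call was lost without any kidney but 3 months replicate 2 (adjusted p from 0.0719 to 0.132) and with only the 2 ages fitted (adjusted p = 0.0546). The genes of its partners in the network were not called. Col4a3 was at 112, 180 and 79.3 CPM, then 140, 90.0 and 155 CPM, then 121, 105 and 98.8 CPM, and Col4a4 at 135, 226 and 90.1 CPM, then 181, 92.9 and 227 CPM, then 233, 132 and 200 CPM. In both, as in Col4a1 at 145, 267 and 97.8 CPM, then 191, 91.9 and 208 CPM, then 298, 195 and 236 CPM, 3 months replicate 2 was the highest kidney of its age and 12 months replicate 2 the lowest. Those are the kidneys with the outlying podocyte and proximal tubule sums, and the part of this in the spread was not tested. None of Col4a1, Col4a2, Col4a3 and Col4a4 was called in any comparison of ages, with log2 fold changes from 3 to 24 months of 0.52, 0.64, -0.20 and 0.32 (adjusted p from 0.463 to 0.709). Without 3 months replicate 2 they were 1.01, 1.29, 0.18 and 0.75, and without 3 months replicate 3 they were 0.24, 0.31, -0.44 and 0.06, none of them called.

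**Figure D4:**
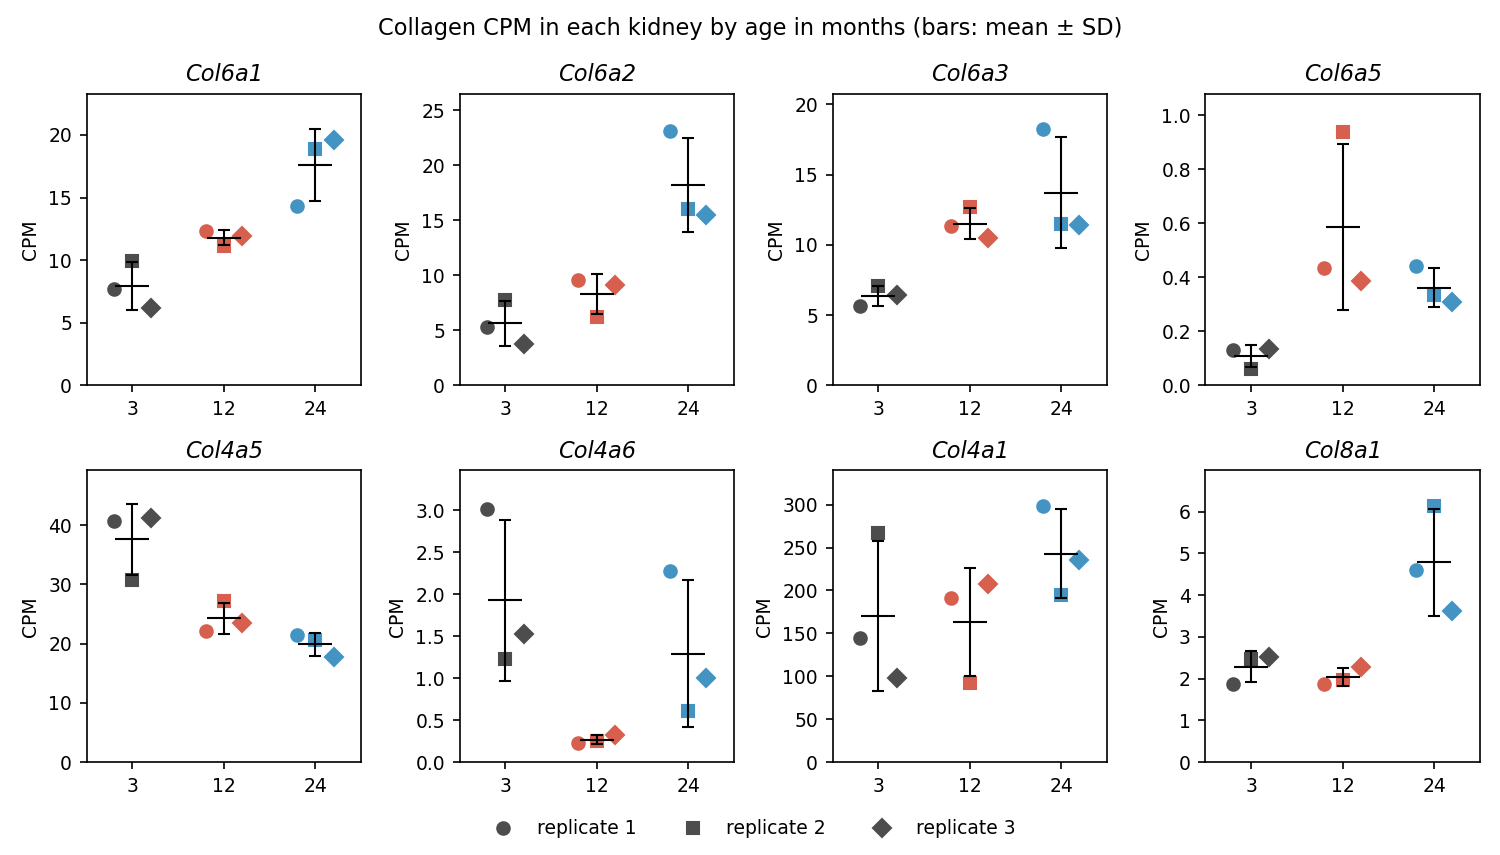
CPM of 8 collagen genes in each kidney at 3, 12 and 24 months, with marker shapes for replicates 1 to 3 and black bars for the mean ± SD (n = 3). The 3 ages do not overlap for Col6a1 and Col4a5, and all kidneys of 12 months lie below the others for Col4a6.

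The interstitial fibrillar collagens of types I and III were not called at 24 against 3 months. Col1a1 was at 15.1, 20.3 and 11.7 CPM, then 22.0, 11.5 and 18.7 CPM, then 33.8, 26.0 and 36.7 CPM (log2 fold change 1.03, SE 0.28, adjusted p = 0.105). Col1a2 was at 33.9, 47.4 and 32.2 CPM, then 43.4, 33.6 and 43.0 CPM, then 71.5, 56.0 and 58.3 CPM (log2 fold change 0.71, SE 0.19, adjusted p = 0.108). In both genes the 3 kidneys of 24 months lay above all younger ones. Col3a1 was at 26.6, 21 and 28.2 CPM, then 17.4, 26.6 and 19.7 CPM, then 31.4, 38.6 and 25.5 CPM, and its ages overlapped (log2 fold change 0.33, adjusted p = 0.406). DESeq2's Wald test called Col1a1 and Col1a2 (adjusted p = 0.0315 and 0.0448), among 7 collagen genes up-regulated and 2 down-regulated in it, where 2.42% and 1.03% of all its genes were. The highest and lowest log2 fold changes among the 30 genes not called were 1.99 for Col17a1, which stayed at or under 0.584 CPM, and -1.07 for Col26a1, at 3.10, 3.15 and 2.25 CPM, then 1.93, 1.92 and 2.41 CPM, then 1.45, 0.927 and 1.67 CPM (adjusted p = 0.0766, and 0.0081 with DESeq2, which called it). With single kidneys left out, the log2 fold change of Col17a1 lay between 1.41 and 3.37.

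**Figure D5:**
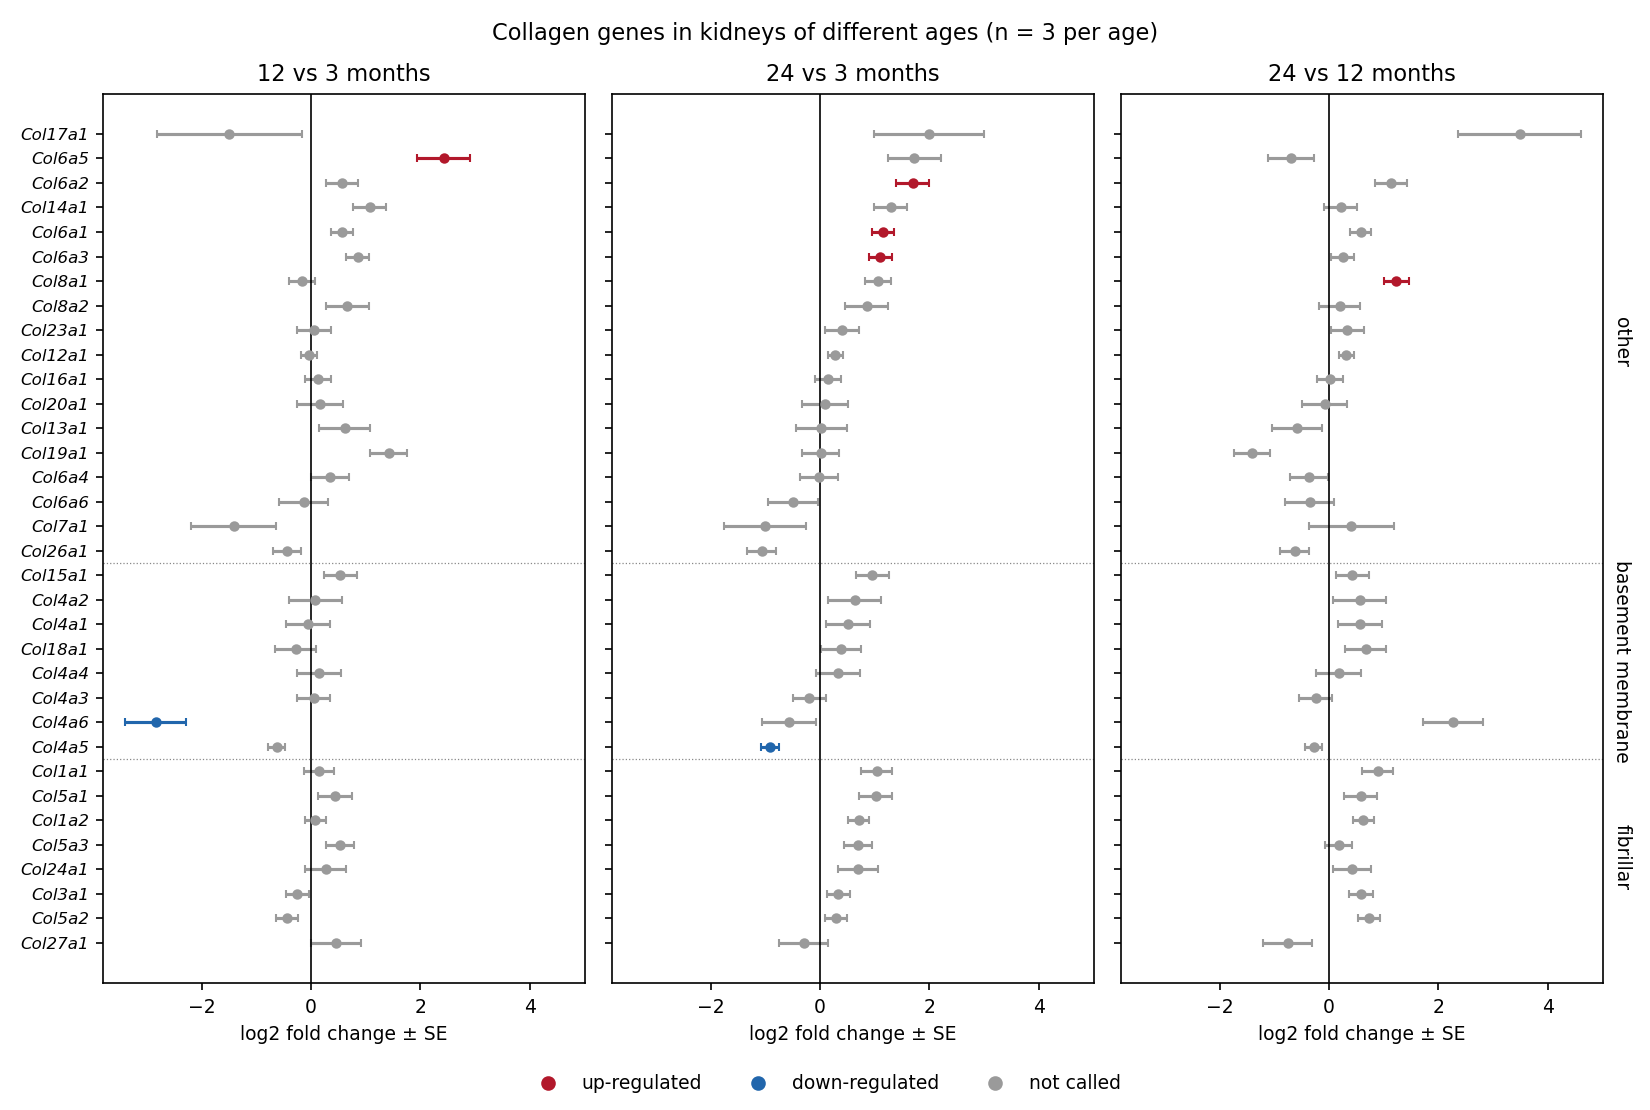
Log2 fold change with its SE (edgeR) of the 34 tested collagen genes in 3 comparisons of kidney age, grouped by class and coloured by call. In 24 against 3 months, 26 of the 34 lie above 0 and 4 are called. The 3 comparisons share kidneys with each other.

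In kidneys of 12 against 3 months, 1 collagen gene was up-regulated and 1 down-regulated, where 1.22% and 1.36% of all genes tested were. In 6 collagen genes the 2 ages were apart with 12 months higher and in 3 with 12 months lower, where 10.9% and 9.4% of all genes were. DESeq2 called 4 collagen genes up-regulated and 2 down-regulated, where 1.77% and 1.92% of all its genes were. Col6a5, a type VI chain, was at 0.131, 0.0615 and 0.135 CPM at 3 months and at 0.434, 0.938 and 0.386 CPM at 12 months, apart but under 1 CPM (log2 fold change 2.42, SE 0.49, adjusted p = 0.0396). It passed the filter on low counts only through the older kidneys, so its call upwards is partly set by the filter. Col4a6 was at 3.02, 1.23 and 1.53 CPM at 3 months, 0.226, 0.247 and 0.328 CPM at 12 months and 2.28, 0.608 and 0.998 CPM at 24 months. The kidneys of 12 months lay below all others, with log2 fold changes of -2.84 from 3 to 12 months (SE 0.56, adjusted p = 0.0381) and 2.27 from 12 to 24 months (SE 0.55, adjusted p = 0.0908, and 0.00324 with DESeq2, which called it). Aqp2, the water channel of the collecting duct, moved in the same kidneys, from between 238 and 615 CPM at 3 months to between 103 and 105 CPM at 12 months and between 162 and 293 CPM at 24 months. The 5 markers of the loop of Henle and distal nephron, Aqp2 among them, summed to at most 3885 CPM at 12 months and at least 4161 CPM in every other kidney. The 6 immediate early and heat shock genes, which respond to handling of tissue, were also lowest at 12 months, at 27.1 to 40.0 CPM against 61.2 to 168 CPM at 3 months and 84.6 to 773 CPM at 24 months. The leukocyte sum was between 37.7 and 39.9 CPM at 12 months, above the kidneys of 3 months and below those of 24 months. The 6 endothelium markers summed to between 234 and 255 CPM at 12 months, above all kidneys of 3 months, at 152 to 195 CPM, and of 24 months, at 143 to 231 CPM. The part of these in the result was not tested. The log2 ratio of Col4a6 to Col4a5 was -4.38 ± 0.55, -6.47 ± 0.32 and -4.15 ± 0.91 at the 3 ages (SD, n = 3), and the 3 kidneys of 12 months lay below the others (exact two-sided permutation p = 0.10 for each neighbouring pair of ages, the smallest that 3 against 3 can give, adjusted p = 0.218). Both calls were lost without most single kidneys, Col6a5 without any of the 6 (adjusted p from 0.0649 to 0.149) and Col4a6 without any but 3 months replicate 2 (adjusted p from 0.0793 to 0.148), and both with only the 2 ages fitted (adjusted p = 0.113 and 0.0622).

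In kidneys of 24 against 12 months, which were counted on one gene set, 1 collagen gene was up-regulated and none was down-regulated in edgeR, where 0.896% and 0.434% of all genes tested were. DESeq2's Wald test called 4 up-regulated and 1 down-regulated, where 1.64% and 0.952% of all its genes were. In 10 collagen genes the kidneys of 24 months all lay above those of 12 months and in 4 below, where 13.5% and 12.2% of all genes did so. Col8a1 (chr16:57624258-57754737) was at 1.87, 1.96 and 2.28 CPM at 12 months and 4.61, 6.14 and 3.61 CPM at 24 months, after 1.86, 2.48 and 2.52 CPM at 3 months. The oldest kidneys lay above all younger ones (log2 fold change 1.23, SE 0.24, adjusted p = 0.0451). The call was lost without any one of the 6 kidneys (adjusted p from 0.0572 to 0.164), with only the 2 ages fitted (adjusted p = 0.0693) and with the replicate block (adjusted p = 0.144). Between these ages the immediate early and heat shock, distal nephron and leukocyte sums given above were higher at 24 months and the endothelium sum was lower, all without overlap. The part of these in the result was not tested. Col19a1, a FACIT, was at 2.19, 3.49 and 1.66 CPM at 12 months against 1.22, 0.745 and 0.799 CPM at 24 months and was not called by edgeR (log2 fold change -1.41, adjusted p = 0.0803, and 0.00494 with DESeq2, which called it), and neither was Col17a1 at 3.49 (adjusted p = 0.184), with 5, 0 and 0 counts in the kidneys of 12 months. With single kidneys left out, the log2 fold change of Col17a1 lay between 2.90 and 7.29. At an unadjusted p under 0.05, 9 collagen genes were higher and 2 lower at 24 than at 12 months, where 8.06% and 7.19% of all genes tested were.

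Leaving out both kidneys that stood apart, 3 months replicate 2 and 12 months replicate 2, gave other counts. In 24 against 3 months, 14 collagen genes were then up-regulated and 2 down-regulated, where 14.7% and 13.6% of all genes tested were. The 14 held the 3 type VI genes (log2 fold changes 1.35, 2.0 and 1.19 for Col6a1, Col6a2 and Col6a3), Col1a1 and Col1a2 at 1.26 and 0.91, Col4a1 and Col4a2 at 1.0 and 1.28, and Col14a1 at 1.58, and Col4a5 was again down-regulated at -1.04. In 12 against 3 months 7 were up-regulated and 3 down-regulated, where 9.58% and 10.7% of all genes were, and in 24 against 12 months none was called by edgeR in either direction, where 1.23% and 0.665% were, with 11 higher and 3 lower at an unadjusted p under 0.05, where 9.62% and 7.25% of all genes were. The 2 kidneys were chosen for this after their values were seen.

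Genes that process collagen were not called in the kidney. Of 29 tested, none was called in any of the 3 age comparisons by edgeR, and the median log2 fold change from 3 to 24 months was 0.18. At an unadjusted p under 0.05, 7 were higher and 3 lower in 24 against 3 months, where 9.97% and 8.23% of all genes were. In 12 against 3 months 3 were higher and 6 lower, where 8.95% and 7.58% were, and in 24 against 12 months 7 were higher and 2 lower, where 8.06% and 7.19% were. Of 8 receptors, Itga11 alone was called, rising from 0.0841 ± 0.0339 CPM at 3 months to 0.316 ± 0.047 at 12 months and 0.708 ± 0.179 at 24 months (SD, n = 3), with log2 fold changes from 3 months of 1.89 (adjusted p = 0.0494) and 3.04 (adjusted p = 0.0077). In the kidneys it passed the filter on low counts only through the older ages, so these calls upwards are partly set by the filter. Itga11 was also up-regulated in senescent PTEC. None of the 8 genes of degradation and uptake was called by edgeR, with 3, 1 and 0 higher and none lower at an unadjusted p under 0.05 in the same order of comparisons and against the same shares, although their summed level was between 24.2 and 31.0 CPM at 3 months and between 38.7 and 53.8 CPM at 24 months, without overlap.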

How the data were processed

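RNA of 8 PTEC cultures and 9 kidneys was sequenced by the authors as stranded poly(A) libraries in paired-end reads. They deposited raw counts per gene, without normalization. Their description, of a pool of 9 libraries, names the nf-core/rnaseq pipeline with GENCODE release M18 on GRCm38, the build in the submitters' processing notes. The aligner, counter and strand setting are not given in the sources used here, so antisense neighbours may share reads. PTEC, kidneys of 3 months and older kidneys were counted on 53715, 54146 and 55401 identifiers, so this release may not hold for every file. The identifiers were matched without version. For 5 collagen genes, Col5a1, Col11a2, Col13a1, Col17a1 and Col25a1, the version differed between kidneys of 3 months and older ones, so their gene models may differ too. Symbols, positions and exon lengths are from GENCODE release M 21.

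Tests on the counts ran in edgeR 4.0.16 and DESeq2 1.42.0 under R 4.3.3. Summaries were made with pandas 2.3.3 under Python 3.11.15. PTEC and kidneys were fitted apart, all 3 ages together, with TMM scaling, filterByExpr and edgeR's quasi-likelihood test, adjusted over all tested genes with the Benjamini-Hochberg method. Every adjusted p of a gene is from edgeR unless DESeq2 is named. Calls used the study's thresholds. Ratios are log2 ratios of counts with a prior count of 0.5, tested with exact permutation. The code was tested on simulated data.

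The collagen genes, their classes and the other lists were chosen with earlier results of these data known. Values per library are given for Col1a1, Col1a2, Col3a1, the type IV genes and, up to 12 per comparison, called genes that averaged 1 CPM or more. Others named are extremes or were chosen after their values were seen. Of the other lists, the called genes with the 3 highest and 3 lowest log2 fold changes are named, and of marker lists their sums and some members.

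Same-numbered PTEC deviated together from their group means (r from 0.186 to 0.614 over 4 pairs). However, non-senescent replicate 2 and senescent replicate 1, which differ in number, had an r of 0.265. The labels do not say whether the numbers pair the cultures, and these values do not settle it. The reported fit has no block, and the block is an alternative. In kidneys r was positive between 12 and 24 months (0.172 to 0.557) and negative against 3 months, and kidneys of different ages came from different mice. The fold changes, medians and call counts of the collagen genes were recomputed with other scalings, low-count filters, thresholds and tools. They were also recomputed with a replicate block, with the compared ages alone and without each library. Ratios were recomputed with another prior count and without each library, and class shares with another gene length only. No such alternatives are reported for the other lists.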

Additional observations from a re-analysis of the deposited data

Results flagged for a closer look

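In 3 of 66 groups of 4 PTEC cultures, counting each tested collagen gene in each group, the gap of the extreme culture to its nearest neighbour was too large a part of the range by Dixon's test. Chance gives about 1 in 20. Col4a4 was at 281 CPM in non-senescent replicate 4 and between 110 and 120 CPM in the other 3 cultures. Col4a5 was at 287 CPM in the same culture and between 97.4 and 129 CPM in the others. Col8a1 was at 64.4 CPM in senescent replicate 4 and between 26.4 and 27.6 CPM in the others.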

How the results depend on the processing

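In PTEC, the counts of 21 up-regulated and 4 down-regulated collagen genes stayed within 1.5 times under every alternative, between 17 and 23 and between 3 and 5 with each culture left out. The replicate block added Col1a1, Col4a6 and Col7a1 to the calls, DESeq2 added Col4a6 (adjusted p = 0.0434), and no other call changed with the block.

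Kidney counts depended on the setting. In 24 against 3 months, 3 up-regulated and 1 down-regulated genes became 7 and 2 with DESeq2's Wald test, 1 and 0 with only the 2 ages compared, 0 and 0 with the replicate block (adjusted p = 0.0791, 0.0781 and 0.106 for Col6a1, Col6a2 and Col6a3, and 0.103 for Col4a5), and 14 and 2 without the 2 kidneys that stood apart, an alternative chosen after seeing the data, and the down-regulated count was 0 at a log2 fold change above 1. With single kidneys left out they lay between 0 and 7 and between 0 and 1. In 12 against 3 months, 1 and 1 became 4 and 2 with DESeq2, 0 and 0 with only the 2 ages compared, 0 and 0 with the replicate block, and 7 and 3 with the 2 kidneys left out, while 2 were up-regulated with no filter on low counts. With single kidneys left out they lay between 0 and 1 and between 0 and 2. In 24 against 12 months, 1 up-regulated and 0 down-regulated became 4 and 1 with DESeq2, and the up-regulated count was 0 with only the 2 ages compared, with the replicate block, with the 2 kidneys left out and without any one kidney. The causes were not tested. Kidneys of different ages came from different mice, so their replicate numbers do not pair them, and the replicate block follows no pairing in the kidneys. No log2 fold change of a called gene turned its sign under any alternative. The length used, the longest transcript being an alternative chosen after seeing the data, moved the mean fibrillar share of the collagen level from 8.03% to 10.1% in senescent PTEC and from 11.1% to 15.2% in kidneys of 24 months. Collagen genes under 1 CPM rest on few counts.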
